A study of Mus musculus with 3 samples.

Results

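The genes described here are 10 genes of MHC class I antigen presentation and its proteasome, out of 17615 genes listed in 3 expression tables. They were chosen by symbol: the class I heavy chain genes H2-K1 and H2-D1, the light chain gene B2m, the peptide transport and loading genes Tap1, Tap2 and Tapbp, the immunoproteasome subunit genes Psmb8, Psmb9 and Psmb10, and the transactivator gene Nlrc5. Each symbol matched 1 NCBI gene ID, and all 10 genes were listed in every table. RNA was sequenced from macrophages of the spleen in C57BL/6J mice with acute myeloid leukemia, and each of the 3 groups gave 1 library. The transplanted leukemia cells, marked GFP+BFP+, were high in mM-CSF in the first group and high in sM-CSF in the second. The control is the group whose own label names no M-CSF, and the protocol gives the remaining kind of cells as having none. In all groups unirradiated mice aged 6 to 8 weeks received 800000 leukemia cells, survival was 30 to 40 days, and GR1-CD115intF4/80+ cells were sorted at day 18. M-CSF is the growth factor of macrophages that binds CD115. What the prefixes mM and sM stand for is not written out in the labels, and they do not say what the control cells carried or how many mice went into a library.

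MHC class I molecules display peptides of the cell's own proteins, and in some phagocytes of ingested proteins, to CD8 T cells. Proteasomes cut the proteins, the TAP transporter carries the peptides into the endoplasmic reticulum, and tapasin, the product of Tapbp, helps load them onto a heavy chain that is paired with beta-2 microglobulin. Interferon gamma induces most of these genes, in part through NLRC5, and exchanges the catalytic subunits of the constitutive proteasome for those of the immunoproteasome. Nearly all nucleated cells express class I, so its transcripts do not mark a cell type.

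NLRC5 acts on class I genes through conserved promoter boxes, which are shown here because Nlrc5 was called lower in the mM-CSF library and the chains it controls were not. That contrast was not kept once a length trend, described below, was removed. None of these genes was then called, and the log2 difference from control was -0.09 for Nlrc5, 0.13 for H2-K1, -0.30 for H2-D1 and -0.80 for B2m. RefSeq promoter windows of 300 bases (250 before to 50 after the start, GRCm38.p6) were at hand for 8 of the 10 genes. In those of B2m, H2-K1 and H2-D1 the X2 box core TGACG was followed, after 20 bases of any kind, by the Y box core ATTGG. The capitals mark these cores.
B2m, chr2:122147609-122147638, plus strand: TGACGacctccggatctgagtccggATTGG
H2-K1, chr17:34000359-34000388, minus strand: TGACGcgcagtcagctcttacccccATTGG
H2-D1, chr17:35262993-35263022, plus strand: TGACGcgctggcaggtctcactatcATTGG
Over these 30 bases H2-K1 and H2-D1 were identical at 23 positions, and B2m matched H2-K1 at 13 and H2-D1 at 12, including the 10 capital bases in each case. Searched on both strands, this spaced pair was in 0.0944% of 32851 windows. By gene, it was in the windows of 27 of 27025 genes, among them 3 of the 8 genes at hand. The spacing was taken from these genes, so their match is a description.

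Further upstream both heavy chain genes hold a palindromic NF-kB motif, known as enhancer A, and an interferon response motif, GAANNGAAA, here on the opposite strand as TTTCACTTC. Enhancer A and then the interferon motif are in capitals below, and the 30 bases were identical at 29 positions. Both H2-D1 stretches printed here overlap an annotated exon of an H2-D1 transcript in GENCODE, and those of H2-K1 overlap none.
H2-K1, chr17:34000429-34000458, minus strand: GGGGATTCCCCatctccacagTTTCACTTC
H2-D1, chr17:35262923-35262952, plus strand: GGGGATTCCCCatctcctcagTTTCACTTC
The B2m promoter has elements of the same kinds with other letters, and with the first pair in the reverse order: an interferon motif (GAAA, 2 bases of any kind, GAAA), an NF-kB motif, and then the X2 and Y boxes. The stretch below holds them in capitals, in this order, and overlaps no annotated exon.
B2m, chr2:122147533-122147653, plus strand: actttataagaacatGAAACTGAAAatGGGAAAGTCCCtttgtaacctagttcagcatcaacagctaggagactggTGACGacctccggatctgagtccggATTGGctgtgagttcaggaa
On both strands, the interferon motif of B2m was in 3.44% of all windows and GAANNGAAA in 7.52%, enhancer A in 0.0304% and the NF-kB motif of B2m in 0.0700%. A match to letters is no evidence of binding in these cells.

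The libraries held 9.09e+06 (control), 8.57e+06 (mM-CSF) and 8.94e+06 (sM-CSF) estimated read counts. All 8 macrophage and sort genes checked were at 9.71 FPKM (fragments scaled to gene length and to the library's mapped fragments) or more in each library. Their summed FPKM was 978 for control, 1818 for mM-CSF and 886 for sM-CSF. Between mM-CSF and control 5 of the 8 were higher in FPKM, C1qa the most, at 254 in the control and 1129 with mM-CSF. The mM-CSF sum was thus mostly C1qa. Adgre1, at 101 FPKM in the control and 67.5 with mM-CSF, and Mertk, at 42.15 and 17.75, were lower, as was Csf1r. The CD115 gene Csf1r was at 268, 222 and 149 FPKM in the order control, mM-CSF, sM-CSF. Other cell types were present as well: the summed FPKM of 8 B cell genes was 1388, 2740 and 2578 in that order, of 7 plasma cell genes 1402, 4418 and 1459, of 8 T cell genes 255, 552 and 458, and of 7 NK cell genes 267, 522 and 336. For 7 granule protein and blast genes it was 200, 848 and 203, for 7 neutrophil genes 30.3, 228 and 37.1, for 8 conventional dendritic cell genes 350, 77.5 and 307, for 8 non-classical monocyte genes 1067, 329 and 438, and for 8 erythroid genes 5217, 4482 and 3865. No marker of these lists was at 0 in any library, but the lowest, in the neutrophil list, was at 0.04 FPKM. Of the 7 neutrophil genes, 5 were at 1 FPKM or more on average. Some genes went against the sum of their list. Between control and mM-CSF, Kit of the granule protein and blast list went from 35.0 to 6.02 FPKM and Cd4 from 62.8 to 28.7. In those lists 6 of 7 and 6 of 8 genes were higher with mM-CSF. In bulk RNA, fewer cells of a type and less RNA per cell cannot be told apart, and the part of these cell types in the class I values was not tested.

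Since each group had a single library, no replicate check and no test between conditions was possible. Intervals given with single genes are exact 95% intervals for the ratio of both libraries' shares of counts, and cover counting error only. Differences are of log2(FPKM + 1). To be called higher or lower, a gene needed a difference of 1 or more in size, which is 2-fold, with the higher library at 5 FPKM or more. All 10 genes had that level in each comparison.

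Levels per length spanned a wide range within each library, and their order was much the same in all 3. B2m was the most abundant of the 10, ahead of H2-D1 and H2-K1, and Nlrc5 the least. In the control library B2m lay at percentile 99.99 of listed genes by FPKM and Nlrc5 at percentile 79.4, and in the mM-CSF library Nlrc5 was at percentile 63.9.

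**Figure D1:**
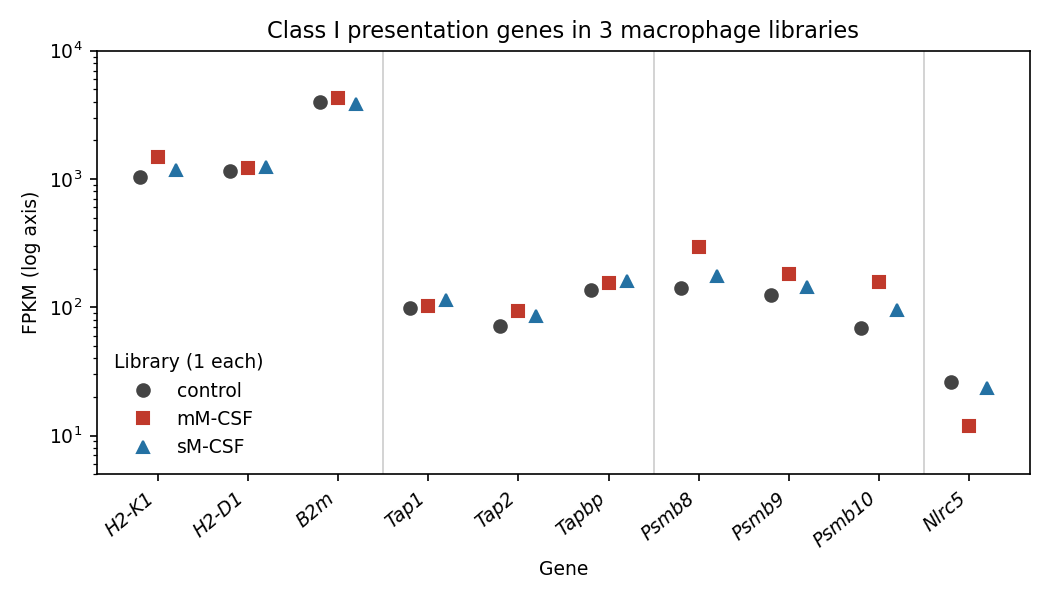
FPKM (log axis) of the 10 genes for control (circles), mM-CSF (squares) and sM-CSF (triangles), 1 library each; vertical lines separate chains, transport and loading, immunoproteasome and transactivator. The mM-CSF library is highest for the 3 immunoproteasome genes and lowest for Nlrc5, at 11.8 FPKM against 26.4 in the control.

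The chains of the class I molecule were abundant in every library and none was called. B2m was at 3973 FPKM for control, 4269 for mM-CSF and 3859 for sM-CSF. H2-D1, a heavy chain of this mouse strain, was at 1164, 1215 and 1238 FPKM in the same order. For both genes the 3 libraries lay close together in FPKM, the differences from control being 0.10 and -0.04 for B2m and 0.06 and 0.09 for H2-D1. This depended on scaling and length, both described below. Between mM-CSF and control B2m was at -0.36 with TPM scaling and -0.80 with the length trend removed, and H2-D1 at -0.40 and -0.30. H2-K1, the other heavy chain, was at 1034, 1489 and 1180 FPKM and so was highest in the mM-CSF library. Its share of counts there was 1.45-fold that of the control (1.42 to 1.48), and in the sM-CSF library 1.14-fold (1.12 to 1.17). The difference of H2-K1 between mM-CSF and control was 0.53, but 0.06 with TPM scaling and 0.13 with the length trend removed.

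The balance of the heavy chains thus differed between libraries. The ratio of H2-K1 to H2-D1 in FPKM was 0.888 in the control (counting interval 0.869 to 0.907), 1.23 in the mM-CSF (1.20 to 1.25) and 0.954 in the sM-CSF library (0.934 to 0.973). Both genes have nearly the same length, 1669 and 1736 bases, and with the length trend removed the log2 change of the ratio between mM-CSF and control was 0.43 in place of 0.47. Counts of both are uncertain, because they were not whole and because 6.87% of the 50-base stretches of H2-K1 transcripts and 13.9% of those of H2-D1 occur in transcripts of another gene, in the GENCODE annotation. H2-K1 and H2-D1 together were at 0.553 times the FPKM of B2m for control, 0.633 for mM-CSF and 0.627 for sM-CSF.

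Transport and loading genes were slightly higher in both M-CSF libraries, though lower in the mM-CSF library with TPM scaling, and none was called. Tap1, for a subunit of the peptide transporter, was at 98.7 FPKM for control, 102 for mM-CSF and 114 for sM-CSF. Tap2, the other subunit, was at 72.0, 92.9 and 85.6 FPKM. Tapbp was at 137, 154 and 161 FPKM. The sM-CSF library was thus highest for Tap1 and Tapbp and the mM-CSF library for Tap2, an order of the M-CSF libraries that flipped under at least 1 scaling for each gene. Between sM-CSF and control the 3 genes differed by much the same amount, 0.20 for Tap1, 0.25 for Tap2 and 0.23 for Tapbp. These differences were 0.17, 0.22 and 0.18 with the length trend removed, and with TPM scaling 0.06, 0.11 and 0.09.

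Tap1 and Tap2 form a heterodimer, and their ratio was nearest to 1 in the mM-CSF library. Tap1 was at 1.37 times the FPKM of Tap2 for control (1.29 to 1.46), 1.33 times for sM-CSF (1.26 to 1.41) and 1.10 times for mM-CSF (1.04 to 1.17). Relative to the control, the ratio in the mM-CSF library was 0.802-fold (0.736 to 0.874), a log2 change of -0.32 that was -0.15 with the length trend removed.

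Immunoproteasome genes held the 2 members that were called higher. Psmb8, for the chymotrypsin-like subunit also named LMP7, was at 143 FPKM for control, 295 for mM-CSF and 176 for sM-CSF. Psmb10, for the trypsin-like subunit MECL-1, was at 68.7, 158 and 95.8 FPKM. In the third subunit gene, Psmb9, which encodes LMP2, the same order was seen over a narrower range, 126, 182 and 144 FPKM. All 3 genes were thus lowest in the control and highest with mM-CSF, though not Psmb9 once the length trend was removed. Psmb10 had a 2.32-fold higher share of counts in the mM-CSF library than in the control (2.13 to 2.52) and Psmb8 a 2.08-fold higher one (1.96 to 2.21), against 1.46-fold for Psmb9 (1.34 to 1.59). In the sM-CSF library the folds over control were 1.396 for Psmb10 (1.27 to 1.53), 1.24 for Psmb8 (1.16 to 1.32) and 1.15 for Psmb9 (1.05 to 1.26). In FPKM, the summed markers of B, plasma, T and NK cells, neutrophils and granule protein or blast cells took the same order, control below sM-CSF below mM-CSF. The FPKM total over all genes took that order too, at 452400 for control, 500018 for sM-CSF and 624289 for mM-CSF. These sums were not rescaled, so their order may not hold with TPM scaling. Medians over the genes of these lists did not all do so. The B cell median was -0.46 between mM-CSF and sM-CSF, and that of granule protein and blast genes -0.03 between sM-CSF and control. The part of these cell types in the immunoproteasome values was not tested.

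Nlrc5 was the member called lower. It was at 26.4 FPKM for control, 11.8 for mM-CSF and 23.7 for sM-CSF, so that the mM-CSF library stood below the other two. The share of counts was 2.22-fold lower in the mM-CSF library than in the control (2.03 to 2.43) and 1.998-fold lower than with sM-CSF (1.83 to 2.19). Of the 10 genes it is by far the longest, at 6945 bases.

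By the size rule, 2 of the 10 genes were higher and 1 lower in the mM-CSF library than in the control, where 8.97% of 9789 genes were called higher, 15.1% lower and 24.1% in either direction. With 10 genes, these counts lie near that background. Between sM-CSF and control none of the 10 was called, against 0.785% higher, 1.63% lower and 2.42% in either direction among 9683 genes, and between mM-CSF and sM-CSF none was, against 3.79%, 8.73% and 12.5% among 9574. The median difference of the 10 genes was 0.27, 0.20 and 0.13 in the order of these comparisons, where that of all 12362 genes at 1 FPKM or more on average was -0.07, 0.02 and -0.11. Both comparisons with the control share that library.

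Scaling set part of these values. Rescaling to TPM (values that sum to the same total in each library) moved the median of all genes between mM-CSF and control from -0.07 to -0.50, that between sM-CSF and control from 0.02 to -0.11 and that between mM-CSF and sM-CSF from -0.11 to -0.42. On that scale Psmb10 differed by 0.73, Psmb8 by 0.58 and Nlrc5 by -1.57, so that Nlrc5 alone of the 10 was called, and the differences of H2-D1, B2m, Tap1, Tap2 and Tapbp turned negative. Of all calls 37.2% were higher with FPKM, 7.62% with TPM and 54.2% with upper-quartile scaling. Under upper-quartile scaling Nlrc5, at -0.92, fell short of the rule.

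Length was the other property that moved with these values. Among genes at 5 FPKM or more on average, the median difference between mM-CSF and control went from 0.80 in the shortest of 5 equal groups (up to 1441 bases) to -0.84 where genes had 4353 bases or more. The median at the length of Nlrc5 was -1.002, that at Psmb8 0.68 and that at Psmb10 0.64. Subtraction of this trend left differences of -0.09 for Nlrc5, 0.36 for Psmb8 and 0.55 for Psmb10, and none of the 10 genes was then called. H2-D1 went to -0.30, Psmb9 to -0.40 and B2m, at 858 bases, to -0.80, all from above to below 0. Tap1, Tap2 and Tapbp, of intermediate length, stayed above 0, at 0.19, 0.34 and 0.24. Between sM-CSF and control the trend was shallower, with medians of 0.24 in the shortest and -0.19 in the longest group, and Psmb10 kept 0.27 of its 0.47. What gave rise to the trend was not tested.

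**Figure D2:**
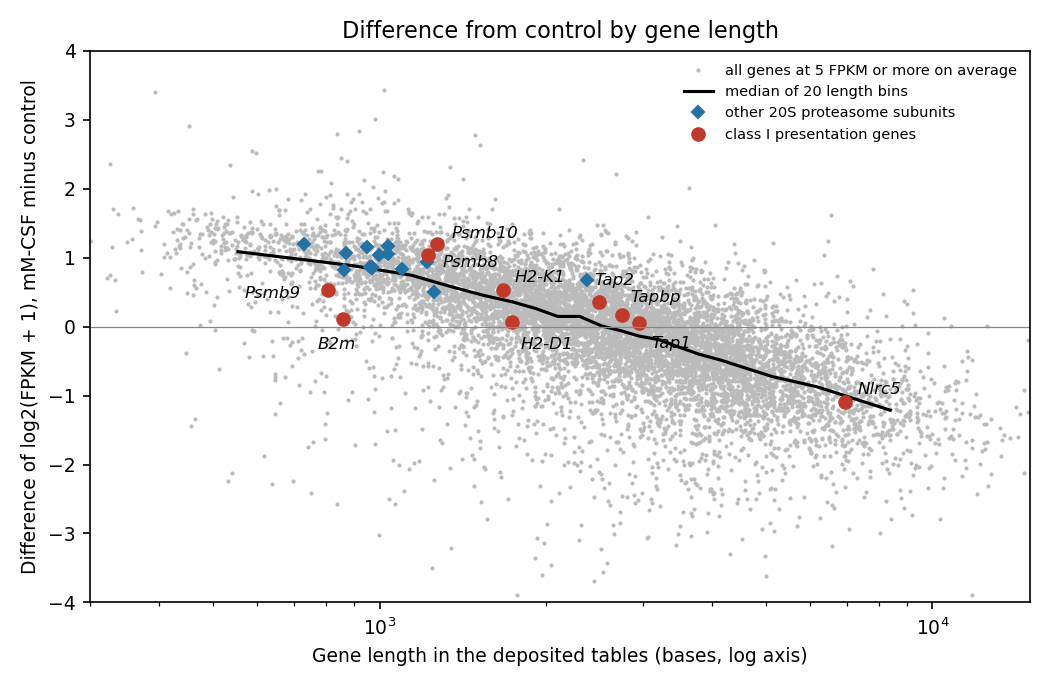
Difference of log2(FPKM + 1), mM-CSF minus control, against gene length (log axis), for genes at 5 FPKM or more on average (grey; limits -4 to 4), the 14 other 20S proteasome subunit genes (diamonds) and the 10 class I genes (circles). The black line is the median of 20 length bins; Nlrc5 lies 0.09 and B2m 0.80 below it.

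**Figure D3:**
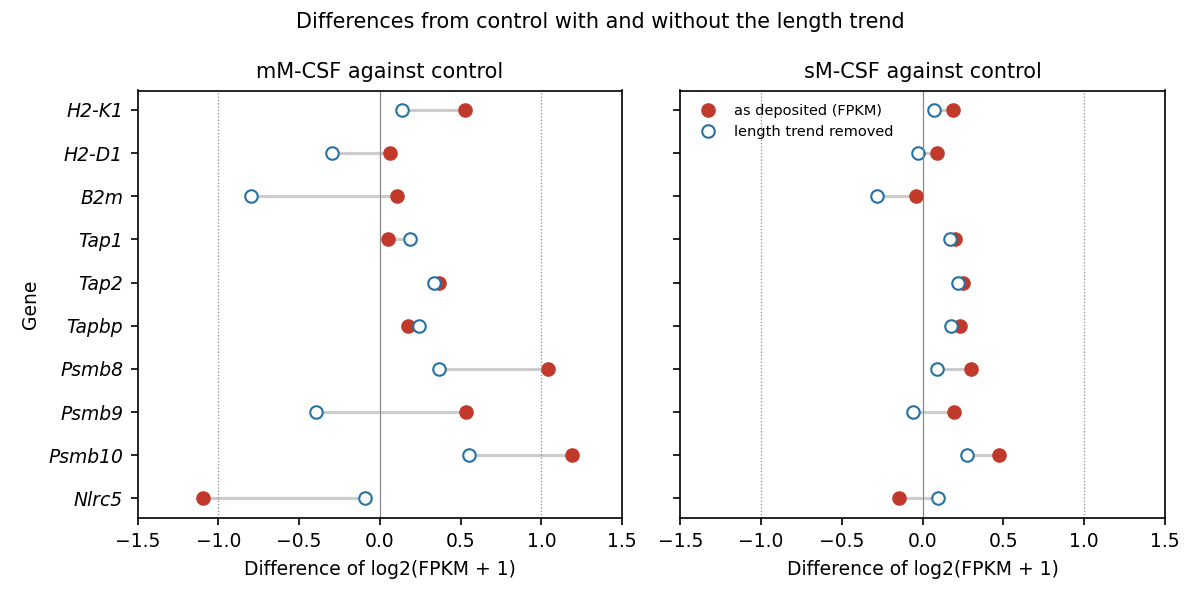
Differences from control of the 10 genes in the mM-CSF (left) and sM-CSF (right) libraries, as deposited (filled) and with the length trend removed (open); dotted lines mark 2-fold. In the left panel Psmb8, Psmb10 and Nlrc5 pass 2-fold as deposited and none does with the trend removed.

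Immunoproteasome subunits replace constitutive ones, so each was set against its counterpart within a library, a ratio that no scaling of the library changes. The constitutive genes were higher in the mM-CSF library as well. Psmb5, the counterpart of Psmb8, was at 60.3 FPKM for control, 127 for mM-CSF and 67.7 for sM-CSF, Psmb6, that of Psmb9, at 70.9, 161 and 84.8, and Psmb7, that of Psmb10, at 68.9, 125 and 66.5. Psmb5 and Psmb6 passed the size rule between mM-CSF and control, and neither did with TPM scaling (0.61 and 0.71) or with the length trend removed (0.17 and 0.37).

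The 3 ratios behaved differently. Psmb8 stood at 2.37 times Psmb5 for control (2.13 to 2.63), 2.32 times for mM-CSF (2.15 to 2.498) and 2.60 times for sM-CSF (2.36 to 2.87), with overlapping intervals. Psmb9 stood at 1.77 times Psmb6 in the control (1.60 to 1.96) and 1.69 times in the sM-CSF library (1.54 to 1.86), but 1.13 times in the mM-CSF library (1.05 to 1.22). Psmb10 was level with Psmb7 in the control, at 0.997 times (0.895 to 1.11), and above it in the mM-CSF library, at 1.27 times (1.17 to 1.37), and in the sM-CSF library, at 1.44 times (1.30 to 1.60). Set against the control, the Psmb9 to Psmb6 ratio of the mM-CSF library was 0.639-fold (0.562 to 0.727) and the Psmb10 to Psmb7 ratio 1.27-fold (1.11 to 1.45). In the sM-CSF library the Psmb10 to Psmb7 ratio was 1.44-fold that of the control (1.24 to 1.68), while for Psmb8 to Psmb5 the interval of 0.95 to 1.27 and for Psmb9 to Psmb6 that of 0.832 to 1.10 included no change. With the length trend removed, the log2 change of Psmb9 to Psmb6 between mM-CSF and control was -0.77 in place of -0.65, and that of Psmb10 to Psmb7 was 0.54 in place of 0.35. These within-library changes therefore did not shrink when length was taken into account. The 3 immunoproteasome genes together were at 1.68 times the 3 constitutive ones for control, 1.54 times for mM-CSF and 1.90 times for sM-CSF.

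**Figure D4:**
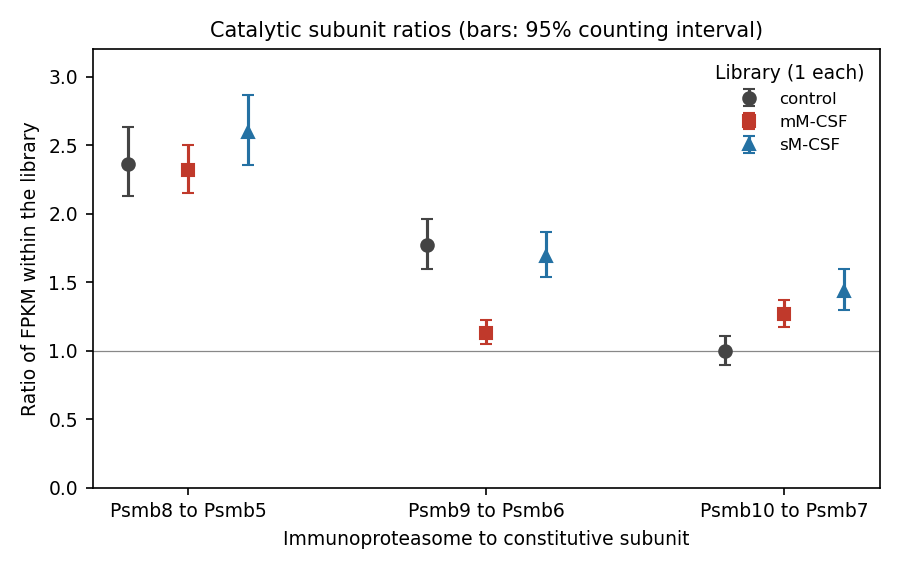
Ratio of FPKM of each immunoproteasome subunit gene to its constitutive counterpart within each of the 3 libraries, with exact 95% intervals that cover counting error only. Psmb9 to Psmb6 is lowest in the mM-CSF library, at 1.13, and Psmb10 to Psmb7 is lowest in the control, at 0.997.

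Genes of the remaining 20S core, which both kinds of proteasome share, give a further reference. Their median over 11 genes was 82.9 FPKM for control, 157 for mM-CSF and 89.1 for sM-CSF, and 4 of the 11, Psma6, Psmb1, Psmb3 and Psmb4, were called higher between mM-CSF and control, where 8.97% of all genes were. None of the 4 was called with TPM scaling (0.58 to 0.73) or with the length trend removed (0.22 to 0.31). Psmb10 went from 0.829 times this median for control to 1.01 for mM-CSF and 1.07 for sM-CSF. Psmb8 was at 1.72, 1.88 and 1.97 times the core median in the same order. Psmb9, by contrast, was at 1.52 and 1.61 times in the control and sM-CSF libraries and at 1.16 times in the mM-CSF library. The lower position of Psmb9 in the mM-CSF library thus held against the core median as well as against Psmb6.

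Psmb9 and Tap1 are neighbours whose RefSeq starts lie 225 bases apart on opposite strands, and they are known to share a bidirectional promoter. Psmb9 was at 1.27 times the FPKM of Tap1 for control (1.18 to 1.37), 1.26 times for sM-CSF (1.17 to 1.36) and 1.78 times for mM-CSF (1.66 to 1.91). The log2 change of 0.49 between mM-CSF and control turned to -0.58 with the length trend removed, since Psmb9 has 806 bases and Tap1 has 2948. No direction can therefore be read from this pair in the mM-CSF library.

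Other genes of the pathway were taken from 8 lists with 65 genes. Between mM-CSF and control 7 of the 65 were called higher and 8 lower, near the 8.97% and 15.1% of all genes. The median was 0.03 over the 64 at 1 FPKM or more on average. Between sM-CSF and control 0 were called higher and 1 lower, and the median was 0.04. All 7 higher genes encode proteasome subunits or, in the case of Pomp, a factor that assembles them, which was at 101 FPKM for control and 205 for mM-CSF. None of these 7 calls was left with TPM scaling (0.55 to 0.73) or with the length trend removed (0.05 to 0.37). Genes of the PA28 activator, which opens the proteasome and is induced by interferon gamma, were short of the rule: Psme1 was at 220, 415 and 285 FPKM in the order control, mM-CSF, sM-CSF, and Psme2 at 107, 198 and 142. In the sM-CSF library these 2 genes differed from the control by 0.37 and 0.41, where the 11 shared core genes had a median of 0.13. With TPM scaling Psme1 and Psme2 were at 0.23 and 0.27 there. With the length trend removed they were at 0.14 and 0.18, and the core median at -0.07. Between mM-CSF and control Psme1 and Psme2 were at 0.45 and 0.42 with TPM scaling, and at 0.08 and 0.004 with the length trend removed. Psmg1, an assembly chaperone gene, was at 30.4 FPKM for mM-CSF and 13.9 for sM-CSF and was the 1 pathway gene called higher between them, while 6 were called lower: Lnpep, Rfx5, Jak2, Stat2, Rab43 and Wdfy4. Over all genes 3.79% were called higher and 8.73% lower in that comparison. Psmg1 was at 0.47 with the length trend removed, short of the rule.

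Genes of peptide loading and trimming went both ways. The chaperone genes Calr and Pdia3 were at 497 and 203 FPKM for control and at 735 and 304 for mM-CSF, while Canx, a chaperone of new heavy chains, was at 103 and 86.9 FPKM. With the length trend removed, Calr, Pdia3 and Canx all lay above 0, at 0.32, 0.62 and 0.28. With TPM scaling they were at 0.10, 0.12 and -0.71. The 2 aminopeptidase genes of the list were called lower. Erap1, which trims peptides in the endoplasmic reticulum, was at 33.9 FPKM for control, 15.8 for mM-CSF and 30.4 for sM-CSF. Lnpep, which trims peptides in endosomes, was at 29.2, 2.86 and 10.3 FPKM and so was lower in both M-CSF libraries. Its share of counts was 10.2-fold lower with mM-CSF (8.48 to 12.3) and 2.83-fold lower with sM-CSF than for control (2.55 to 3.15). With the length trend removed Lnpep stayed past 2-fold in both comparisons, at -2.24 and -1.28, and Erap1 did not, at -0.60.

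Of 11 non-classical and class I-like heavy chain genes 9 reached 5 FPKM between each M-CSF library and the control, and none was called in FPKM. Stretches shared with other genes were not measured for this list. H2-T23, which encodes the Qa-1 molecule seen by inhibitory receptors of NK cells, was at 243, 338 and 302 FPKM in the order control, mM-CSF, sM-CSF. H2-T22 was at 68.4, 99.8 and 77.3 FPKM, and H2-Q7 at 104, 142 and 103. Between mM-CSF and control, H2-T23, H2-T22 and H2-Q7 differed by 0.01, 0.08 and -0.01 with TPM scaling. With the length trend removed they were at -0.13, 0.19 and -0.04. Among the 9, the difference of greatest size between mM-CSF and control was that of H2-Q6, at 45.2, 23.7 and 39.7 FPKM. It was -0.90, and passed 2-fold with TPM scaling, at -1.37, and with the length trend removed, at -1.73. Between sM-CSF and control the greatest difference among the 9 was that of H2-T10, at 13.5 and 20.6 FPKM. Next came Cd1d1, for a molecule that presents lipids, at 27.3 and 38.5.

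NLRC5 works with RFX, NF-Y and CREB proteins on the X and Y boxes shown above. Of 8 such genes 1 was called lower between mM-CSF and control, where 15.1% of all genes were. This was Rfx5, at 22.5 FPKM for control, 8.46 for mM-CSF and 25.2 for sM-CSF. Rfx5 was thus low in FPKM in the library where Nlrc5 was low. Its difference of -1.31 from the control was -0.81 with the length trend removed, where that of Nlrc5 was -0.09. The other RFX genes were not lower in FPKM, although with TPM scaling Rfxap differed by -0.02 between mM-CSF and control: Rfxank was at 13.5, 20.7 and 18.5 FPKM and Rfxap at 7.71, 10.5 and 8.89. Nfya, a subunit of NF-Y, was at 38.0, 18.8 and 34.7 FPKM, just short of the rule in the mM-CSF library.

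Genes that carry interferon signals to class I had a median difference of -0.55 between mM-CSF and control over 14 genes, and -0.53 with the length trend removed. Of the 14, 2 were called lower and 0 higher, where 15.1% of all genes were called lower and 8.97% higher. Jak2, a kinase of the interferon gamma receptor, was at 59.5 FPKM for control, 12.96 for mM-CSF and 47.5 for sM-CSF, and Stat2, a transcription factor of type I interferon, at 30.3, 13.8 and 29.0. Jak2 stayed past 2-fold with the trend removed, at -1.42, and Stat2 did not, at -0.53. Irf1, which binds the interferon motif of class I promoters, was at 85.5, 65.1 and 100 FPKM. Ifng itself was low, at 5.72, 6.02 and 4.49 FPKM. In the sM-CSF library this list lay at the control, with a median of -0.03.

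Cross-presentation genes, which serve the display of ingested proteins, were called lower in 3 of 6 cases between mM-CSF and control, where 15.1% of all genes were. Wdfy4, needed for cross-presentation by dendritic cells, was at 90.1 FPKM for control, 23.9 for mM-CSF and 70.1 for sM-CSF. Rab43, for a vesicle GTPase, was at 65.4, 22.7 and 55.4 FPKM, and Cybb, for the phagocyte oxidase, at 159, 67.2 and 86.5. With the length trend removed these 3 genes were at -0.66, -0.93 and -0.59, all short of 2-fold. The summed conventional dendritic cell markers were lower in the mM-CSF library too, and their part in these values was not tested.

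**Figure D5:**
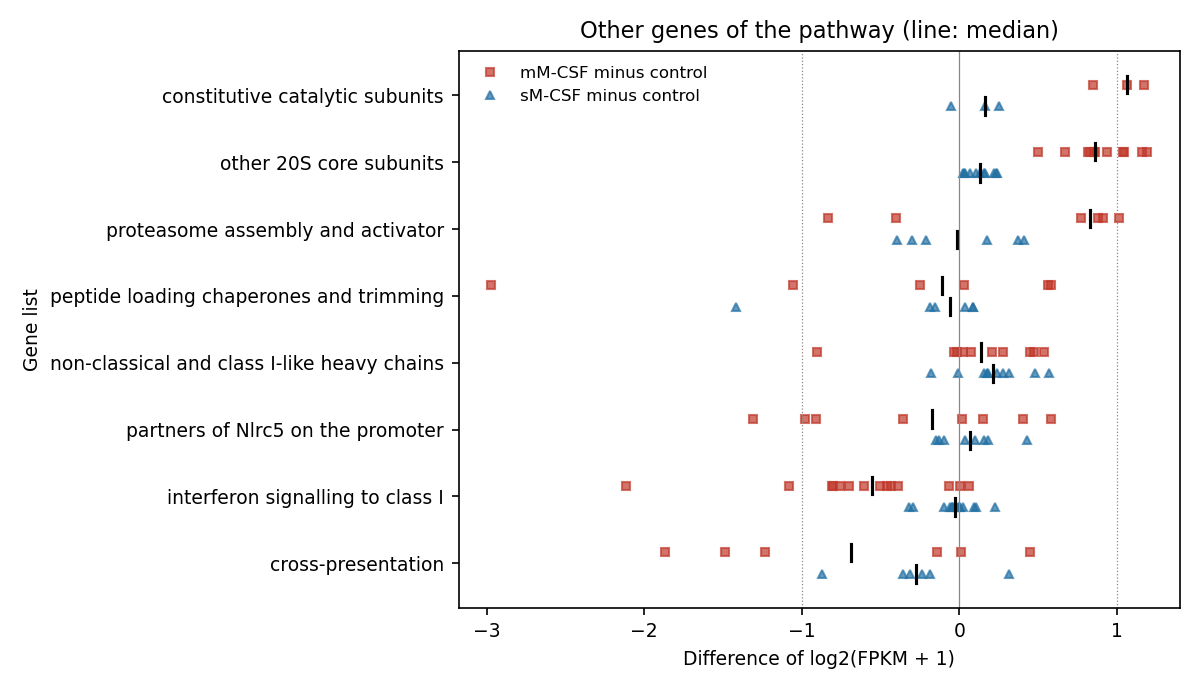
Differences of log2(FPKM + 1) from the control of other pathway genes at 1 FPKM or more on average, by list, in the mM-CSF (squares) and sM-CSF (triangles) libraries; the black line is the list's median and dotted lines mark 2-fold. Medians in the mM-CSF library go from 1.06 for constitutive catalytic subunits to -0.69 for cross-presentation genes, and in the sM-CSF library lie between -0.27 and 0.21.

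Genes most like a member in their pair of differences from the control were found among 7623 candidates at 10 FPKM or more in some library. For Nlrc5 they were Abl1, Foxj2 and Arid1b, for Psmb8 Mdh1, Lamtor2 and Gmds, and for B2m Pik3r2, Ints5 and Anapc4. Over 3 libraries such likeness is common: 68 candidates lay within a distance of 0.1 of Nlrc5, 115 of Psmb8 and 170 of B2m.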

How the data were processed

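RNA sequencing libraries were made from 1 ug of total RNA on BGIseq-500, per the labels' protocols. Tools named without a role, per the submitters' processing notes, are RSEM and Bowtie2 2.2.5. Build, annotation and strand are not given in the sources used here. Per the file headers, the authors deposited an expected count (estimated reads per gene, not always whole) and an FPKM value per gene. A gene absent from a table was set to 0.

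Symbols came from a GRCm38.p6 table, which left 54 genes unnamed. Differences, exact conditional (Clopper-Pearson) intervals on counts rounded to whole numbers, and ratios were computed in Python 3.11.15 with scipy 1.17.1 and tested on simulated counts. Total counts of 8.57e+06 to 9.09e+06 set the counting precision. The length trend was the median difference in 20 equal-sized length bins, interpolated on log length. Alternatives covered pseudocount, minimum, scaling, unit, length and size rule. Within-library ratios with the trend removed were added after seeing the data.

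The 10 genes and the lists were chosen with earlier results of these data known. Named genes were the members, list genes past the size rule or with large differences, and fixed partners. Likeness was the Euclidean distance over both differences from control.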

Additional observations from a re-analysis of the deposited data

Results flagged for a closer look

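B2m lay on opposite sides of the control. Its difference of log2(FPKM + 1) from that library was 0.10 with mM-CSF and -0.042 with sM-CSF, and both counting intervals excluded no change. With TPM scaling the mM-CSF value was -0.36, so that both were negative. The difference between the 2 was not tested, since each group had 1 library.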

How the results depend on the processing

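No paired analysis was possible because each group had 1 library, and leaving out a library would have left a group empty. Between mM-CSF and control, the count of 3 called members was 1 with TPM scaling and 0 with the length trend removed or a 3-fold rule; it was 2 with upper-quartile scaling and 3 under the other 7 alternatives. Fewer genes pass a stricter rule by construction, TPM scaling shifted all genes, and the cause of the length trend was not tested. Between mM-CSF and sM-CSF the count of 0 was 1 with TPM scaling (Nlrc5) and 3 with a 1.5-fold rule (Psmb8, Psmb10, Nlrc5). Between sM-CSF and control it was 0 under all 11 alternatives. The ratios of catalytic subunits stayed within their counting intervals when expected counts per length replaced FPKM. With the length trend removed, the log2 change of Psmb9 to Tap1 reversed to -0.58 (mM-CSF against control) and -0.35 (mM-CSF against sM-CSF). The median of the members between mM-CSF and control was -0.19 with TPM and 0.16 to 0.45 under the other alternatives tried for it. Of all calls between mM-CSF and sM-CSF 30.3% were higher, against 7.72% with TPM, 54.5% with upper-quartile and 47.9% with median-of-ratios scaling; between sM-CSF and control 32.5% were, against 21.2% with TPM and 20% with CPM. With the trend removed, calls over all genes between mM-CSF and control went from 878 higher and 1480 lower to 287 and 778. Depth limits Ifng, whose interval between mM-CSF and control was 0.734 to 1.53.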
